A study of Mus musculus with 24 samples.

Results

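The messenger RNAs of 44 DNA replication and cell cycle genes were followed across 12 groups of a mouse cell line in which NIPBL, the loader of the cohesin ring, could be depleted. The genes were taken by name from a list of 44, all of which were among the 55341 gene names of the count table. The list was chosen with earlier results of these data known. They comprised 31 genes of G1/S and S phase, here called S-phase genes, 12 genes of G2 and mitosis, called G2/M genes, and the G1 cyclin gene Ccnd1. All 44 passed the filter on low counts, and the lowest count of any of them in any library was 637, for Orc1.

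Every library came from 3134 cells, labelled as a mouse mammary adenocarcinoma line, that carried a short hairpin RNA against NIPBL switched on by IPTG (the labels' shNIPBL). A construct had then been integrated with a piggyBac system: an empty vector (EV), wild-type NIPBL (WT), or 1 of 3 mutants named C1, C2 and C1-C2, whose changes the labels do not describe. Cells with the empty vector were grown without IPTG or with 1 mM IPTG, and cells with the other constructs were grown with 1 mM IPTG only. All had spent 3 days in charcoal-stripped serum, and each state received ethanol or 100 nM dexamethasone, a synthetic glucocorticoid, for 2 hours before harvest. This gave 6 states in 2 treatments with 2 libraries per group, 24 in all. The series' design text calls the replicates biological, without saying whether they were separate cultures or separate integrations. No group had IPTG without the hairpin, so loss of NIPBL and an effect of IPTG or of the hairpin itself cannot be told apart in the knockdown comparison.

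DNA replication is prepared in G1, when the origin recognition complex, CDC6 and CDT1 load the MCM2-7 helicase onto origins. At the start of S phase cyclin E and its kinase partner, together with MCM10, CDC45 and the GINS complex, turn the loaded helicase into an active fork, where primase, the DNA polymerases, the PCNA clamp and its loader copy the strands. Most of these genes are transcribed by E2F factors in late G1 and S phase, whereas the genes of mitosis peak later under the MuvB, B-MYB and FOXM1 proteins, which act through a promoter element called CHR.

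Promoters of the genes were searched for the letters of these elements, because they are what is known to set the S-phase and the G2/M genes apart. The E2F words searched were TTTCCCGC, TTTGGCGC, TTTCGCGC and TTTGCCGC, the CHR words were TTTGAA and TTCGAA, and the CCAAT box, which the factor NF-Y binds, was searched as CCAAT. Both strands were read, and matches were allowed to overlap. A promoter of 250 bases before to 50 bases after the transcription start was available from RefSeq (build GRCm38.p6) for 26 of the 31 S-phase genes and 9 of the 12 G2/M genes. An E2F word was present in 10 of the 26 S-phase promoters (38.5%) and 1 of the 9 G2/M promoters (11.1%), against 4.19% of the promoters of 10230 tested genes. A CHR word was present in 5 of the 26 (19.2%) and 8 of the 9 (88.9%), against 14% of the 10230. CCAAT stood in 17 of the 26 (65.4%) and in all 9, against 39.5%. The promoters of Mcm3 and Mcm6, helicase subunits, and of Ccnb2 and Plk1, a cyclin and a kinase of mitosis, show the contrast, with the matched letters in capitals (E2F words in Mcm3 and Mcm6, CHR words in Ccnb2 and Plk1, CCAAT or its reverse complement ATTGG in all 4).
Mcm3: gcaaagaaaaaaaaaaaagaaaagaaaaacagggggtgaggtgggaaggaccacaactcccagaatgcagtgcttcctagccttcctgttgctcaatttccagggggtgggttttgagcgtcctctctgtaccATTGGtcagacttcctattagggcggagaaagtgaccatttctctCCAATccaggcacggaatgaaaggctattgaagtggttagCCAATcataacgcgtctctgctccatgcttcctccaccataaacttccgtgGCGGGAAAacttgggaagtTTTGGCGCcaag
Mcm6: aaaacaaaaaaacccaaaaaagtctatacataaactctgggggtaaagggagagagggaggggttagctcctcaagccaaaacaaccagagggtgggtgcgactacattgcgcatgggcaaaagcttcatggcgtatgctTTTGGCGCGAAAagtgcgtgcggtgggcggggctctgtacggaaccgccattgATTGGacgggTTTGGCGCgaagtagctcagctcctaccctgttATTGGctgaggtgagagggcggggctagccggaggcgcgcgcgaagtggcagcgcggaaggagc
Ccnb2: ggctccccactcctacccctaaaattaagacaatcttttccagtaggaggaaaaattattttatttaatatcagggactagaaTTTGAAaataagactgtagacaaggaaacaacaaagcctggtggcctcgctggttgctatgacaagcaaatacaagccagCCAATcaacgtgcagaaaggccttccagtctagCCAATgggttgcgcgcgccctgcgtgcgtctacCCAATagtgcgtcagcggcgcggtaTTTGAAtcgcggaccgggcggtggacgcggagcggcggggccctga
Plk1: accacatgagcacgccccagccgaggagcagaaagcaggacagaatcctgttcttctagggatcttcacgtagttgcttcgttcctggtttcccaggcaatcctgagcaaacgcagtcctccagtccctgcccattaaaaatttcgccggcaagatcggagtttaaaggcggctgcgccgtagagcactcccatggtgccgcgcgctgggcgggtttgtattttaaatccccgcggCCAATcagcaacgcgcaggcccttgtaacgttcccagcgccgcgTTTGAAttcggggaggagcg
They lie at chr1:20820263-20820562 (minus strand), chr1:128359656-128359955 (minus), chr9:70421505-70421804 (minus) and chr7:122159185-122159484 (plus), and each is written 5′ to 3′ on the gene's strand. Mcm3 holds 2 E2F words, both after the start, and Mcm6 holds 3, of which the first pair overlap. Mcm4, Ccne2, Gins1, Gins2, Pole, Ccna2, Aurkb, Foxm1 and Ccnd1 were not matched. A match describes the letters only and does not show a bound site.

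The ethanol libraries held 32532858 to 42711188 counts and the dexamethasone libraries 45038685 to 72857880 counts. Levels are given in CPM, a library's counts scaled to a common total after TMM normalization. Nipbl stood at 151 to 186 CPM in the 4 libraries without IPTG and at 48.1 to 73.3 CPM in the 20 with IPTG, and the ranges did not overlap. With wild-type NIPBL it was at 55.1 to 70.4 CPM, within the range of all libraries with IPTG, so the Nipbl count checks the hairpin but not the construct. The labels disagree on 1 library, the second C1-C2 replicate in ethanol, titled ethanol but with dexamethasone in its treatment field. It held 24.4 CPM of the glucocorticoid target Per1, within the 22.2 to 26.6 CPM of the ethanol libraries and far from the 269 to 308 CPM of the dexamethasone libraries, and was grouped by its title. Of 6 epithelial markers, Epcam was at 0 in all 24 libraries, Cdh1, Krt8, Krt18 and Krt5 were under 1 CPM, and Krt14 was at 13.4 to 21.8 CPM. Of 4 mesenchymal markers, Vim was at 3328 to 4458 CPM, Col1a2 at 1387 to 1845 CPM, Pdgfrb at 107 to 236 CPM and Col1a1 at 0.40 to 2.05 CPM, so the defining epithelial markers were mostly absent from the labelled carcinoma cells. Markers of blood cells and endothelium (Ptprc, Cd3e, Cd79a, Pecam1 and Cdh5) were at most at 0.294 CPM.

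All 44 genes were expressed in every library. Divided by gene length, the mean level over the 24 libraries was highest for Ccnd1, at 205 CPM per kilobase, followed by Rrm2 at 94.5, Pcna at 87.7, Mki67 at 86.2 and Top2a at 82.5. The lowest were E2f2 at 4.46, Gins2 at 5.23 and Orc1 at 5.73 CPM per kilobase. The libraries differed most for Ccne2, whose highest library (63.2 CPM) was 3.43 times its lowest (18.4 CPM). Mcm3 came next, at 1.88 times, and Cenpa and Cdk1, genes of mitosis, varied least, at 1.12 and 1.14 times.

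Induction of the hairpin was accompanied by lower RNA of the S-phase genes, and the cyclin E2 gene and a helicase subunit fell furthest. In ethanol 24 of the 44 genes fell in empty-vector cells with IPTG against those without and 0 rose (edgeR, adjusted p under 0.05), where 6.24% of all 16934 tested genes fell and 7.16% rose. The 24 were 21 of the 31 S-phase genes and 3 of the 12 G2/M genes. The median log2 fold change was -0.28 for the S-phase genes and -0.11 for the G2/M genes, beside -0.01 over all tested genes. In dexamethasone 19 of the 44 fell (18 S-phase, 1 G2/M) and 0 rose, where 8.49% of all tested genes fell and 8.36% rose, and the medians were -0.21, -0.11 and 0.00. The same 16 S-phase genes were called lower in both treatments, against 4.48% of all tested genes. Of the 12 G2/M genes 0 were, a count near that share. In these bulk libraries a smaller share of cells in S phase and less RNA per cell cannot be told apart. Without replicate 2 of the empty vector with IPTG in dexamethasone the count there was 6 (Ccne2, Mcm3, Gins2, Cdt1, Mcm6 and Pola1), without replicate 1 of the empty vector without IPTG it was 9, and without replicate 2 of the empty vector with IPTG in ethanol the ethanol count was 15.

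**Figure D1:**
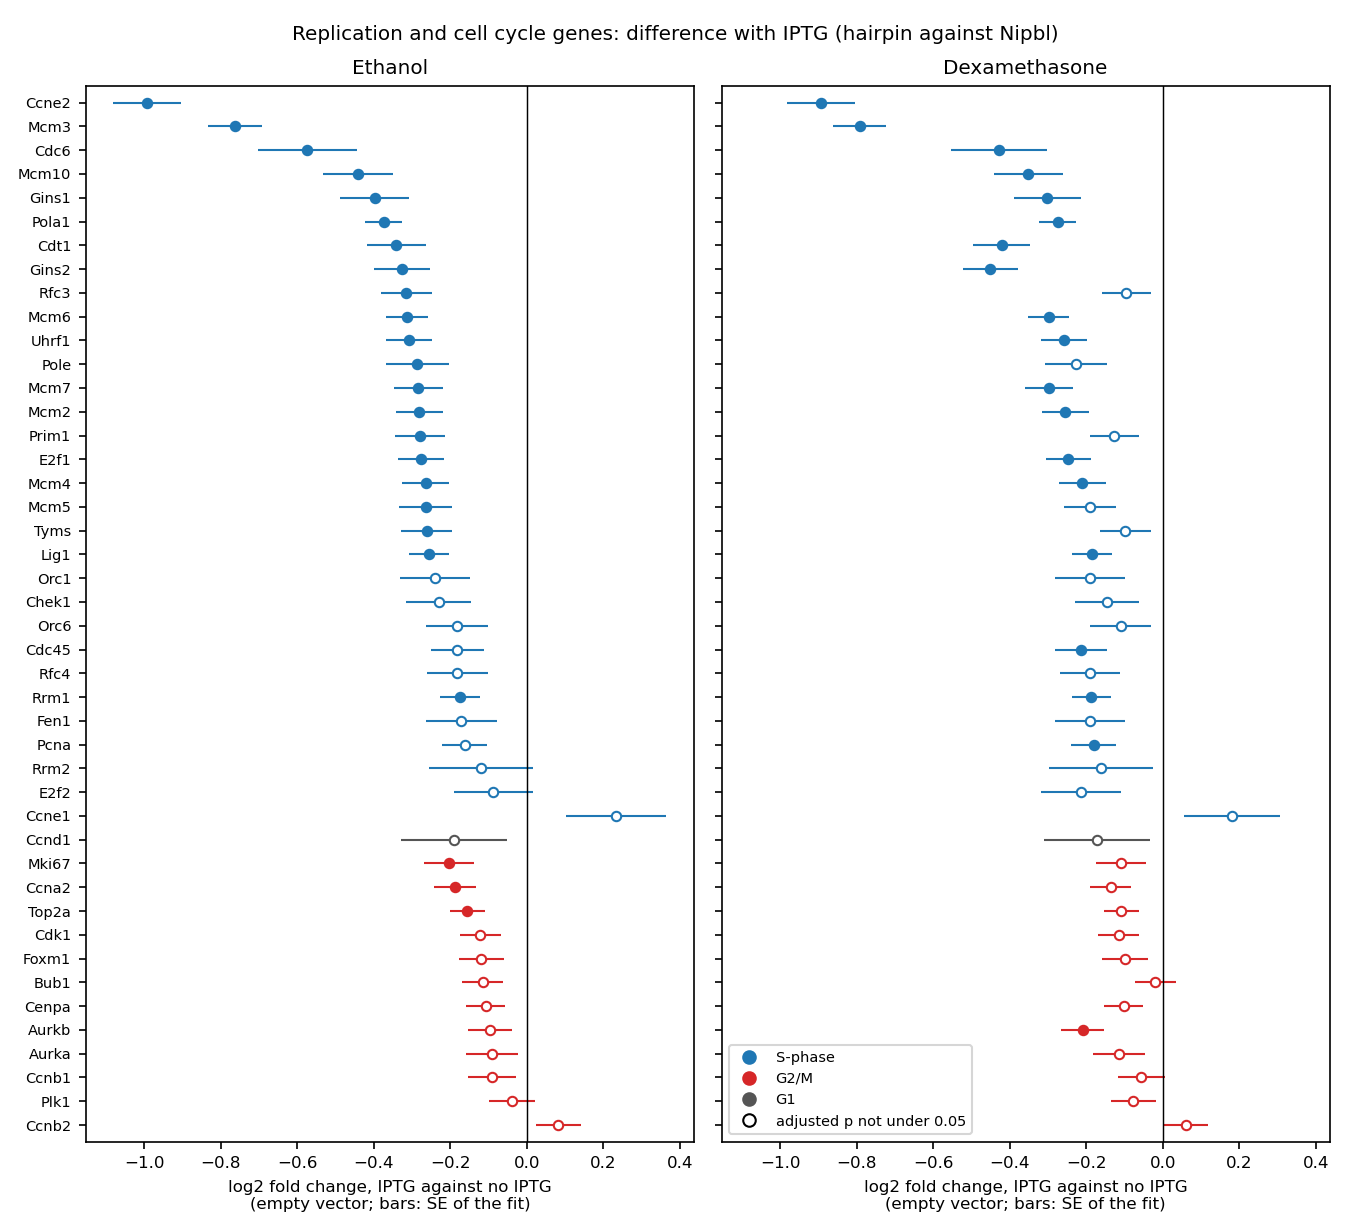
Log2 fold change of each of the 44 genes, with IPTG against without IPTG in empty-vector cells, in ethanol (left) and dexamethasone (right). Points are fitted values, bars their standard errors, filled points have an adjusted p under 0.05, and colours mark S-phase, G2/M and G1 genes. Ccne2 and Mcm3 lie furthest to the left in both panels, and Ccne1 and Ccnb2 are the only points to the right of 0.

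The regulators that open S phase held the largest fall. Ccne2 encodes cyclin E2, an activator of CDK2, and lies at chr4:11191351-11204779 (plus strand, mm10). In ethanol it was at 57.7 and 63.2 CPM without IPTG and at 30.1 and 30.6 CPM with IPTG, and in dexamethasone at 37.4 and 36.7 CPM against 19.3 and 20.6 CPM. Neither treatment had overlapping libraries, and the fall was 1.99-fold in ethanol (log2 -0.99 ± 0.089, SE of the fit, edgeR adjusted p = 6.5e-08) and 1.86-fold in dexamethasone (-0.89 ± 0.090, adjusted p = 2.1e-07). Its gene overlaps Ints8 on the other strand, and Ints8 differed by -0.01 and 0.07 on the log2 scale, with adjusted p of 0.916 and 0.468. The other cyclin E gene, Ccne1, did not follow: it was at 25.8 and 25.7 CPM without IPTG and 27.5 and 33.1 CPM with IPTG in ethanol, a log2 difference of 0.23 ± 0.13 (adjusted p = 0.284). In dexamethasone Ccne1 differed by 0.18 ± 0.13 (adjusted p = 0.370). E2f1, an activating E2F factor, was at 92.7 and 90.2 CPM without IPTG and 75.4 and 75.7 CPM with IPTG in ethanol, and at 116 and 108 CPM against 96.9 and 91.0 CPM in dexamethasone. It fell by 0.28 (SE 0.060) and 0.25 (SE 0.059) on the log2 scale, with no overlap, and 2 of 16 alternatives ended the call in dexamethasone (edgeR adjusted p up to 0.0978). E2f2, its close relative, differed by -0.09 ± 0.10 and -0.21 ± 0.10 and did not pass the test in either treatment. Neither did Chek1, the checkpoint kinase of replication stress, at -0.23 ± 0.084 and -0.15 ± 0.083, whereas Uhrf1, which carries DNA methylation onto the new strand, fell by 0.31 and 0.26.

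Among the licensing factors, Cdc6 and Cdt1 fell in both treatments. Cdc6 (chr11:98907801-98923940, plus strand) was at 58.2 and 61.1 CPM without IPTG and 37.2 and 43.01 CPM with IPTG in ethanol, a 1.49-fold fall (log2 -0.57 ± 0.13, adjusted p = 0.00711). In dexamethasone Cdc6 was at 53.4 and 52.7 CPM against 40.2 and 38.6 CPM, a 1.35-fold fall (adjusted p = 0.0293), and the call was lost in 2 of 16 alternatives in ethanol and 4 of 16 in dexamethasone (edgeR adjusted p up to 0.0878 and 0.181). Cdt1 was at 86.1 and 82.8 CPM against 68.0 and 65.4 CPM in ethanol, and at 106 and 94.6 CPM against 78.7 and 71.3 CPM in dexamethasone. Its falls, 1.27-fold and 1.34-fold, had no overlap between the groups, and 1 of 16 alternatives ended the call in ethanol (edgeR adjusted p 0.0534). Orc1 and Orc6, subunits of the complex that marks origins, had log2 differences of -0.24 and -0.18 in ethanol and -0.19 and -0.11 in dexamethasone, and none of the 4 passed the test.

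Mcm3 fell more than any other helicase subunit. Its gene (chr1:20802968-20820312, minus strand) was at 151 and 152 CPM without IPTG and 87.8 and 90.7 CPM with IPTG in ethanol, and at 163 and 155 CPM against 95.0 and 88.8 CPM in dexamethasone. The libraries did not overlap, and the falls were 1.70-fold (log2 -0.76 ± 0.070, adjusted p = 5.83e-08) and 1.73-fold (-0.79 ± 0.069, adjusted p = 1.55e-08). The other 5 subunits of the ring changed less: Mcm2, Mcm4, Mcm5, Mcm6 and Mcm7 all fell in ethanol, by 0.27 (Mcm4 and Mcm5) to 0.31 (Mcm6) on the log2 scale. In dexamethasone Mcm2, Mcm4, Mcm6 and Mcm7 fell by 0.21 to 0.30, and Mcm5 differed by -0.19 ± 0.068 (adjusted p = 0.0557). Mcm6 was at 304 and 299 CPM against 247 and 238 CPM in ethanol, and at 299 and 271 CPM against 242 and 221 CPM in dexamethasone, with the libraries with IPTG lower throughout. The Mcm7 gene overlaps Ap4m1 and Cops6 on the other strand and holds microRNA genes on its own. Ap4m1 and Cops6 had differences above 0 in both treatments that did not pass the test. Further members, among them Cdt1, Gins2, Rrm1, Lig1 and Foxm1, also overlap annotated genes, whose levels were not examined.

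The factors that turn the helicase into a fork fell as well. Mcm10 was at 56.3 and 55.9 CPM without IPTG and 42.3 and 40.3 CPM with IPTG in ethanol, a fall of 0.44 (SE 0.092) on the log2 scale. In dexamethasone it was at 56.5 and 53.6 CPM against 44.4 and 41.9 CPM, and fell by 0.35 (SE 0.090), a call lost in 2 of 16 alternatives (edgeR adjusted p up to 0.113). Gins1 and Gins2 encode 2 of the subunits of GINS. Gins1 was at 24.9 and 25.5 CPM against 18.8 and 19.4 CPM in ethanol (1.32-fold lower) and at 22.7 and 20.3 CPM against 17.9 and 16.9 CPM in dexamethasone (1.23-fold lower). The Gins1 call in dexamethasone was lost in 3 of 16 alternatives (edgeR adjusted p up to 0.201). Gins2 was at 26.3 and 26.9 CPM against 20.8 and 21.7 CPM in ethanol (1.25-fold lower) and at 26.8 and 25.1 CPM against 19.3 and 18.7 CPM in dexamethasone (1.37-fold lower). Without IPTG every library of these 3 genes was above every library with IPTG of the same treatment in empty-vector cells. Cdc45, the other partner of the active helicase, fell by 0.21 in dexamethasone and differed by -0.18 ± 0.069 in ethanol (adjusted p = 0.0872).

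Of 11 genes that act at the fork or supply its nucleotides, 7 fell in ethanol and 4 in dexamethasone. Pola1, the catalytic subunit of the polymerase that begins each strand, was at 128 and 130 CPM against 102 and 96.9 CPM in ethanol and at 97.5 and 94.2 CPM against 81.7 and 76.8 CPM in dexamethasone. It fell 1.30-fold (log2 -0.37 ± 0.049, adjusted p = 7.44e-06) and 1.21-fold (-0.27 ± 0.049, adjusted p = 2.46e-04), and no library overlapped. Its partner Prim1, the primase, and Pole, the leading-strand polymerase, fell by 0.28 and 0.29 in ethanol and differed by -0.13 and -0.23 in dexamethasone without passing the test. Rfc3, a subunit of the clamp loader, was at 39.2 and 37.7 CPM against 30.5 and 31.3 CPM in ethanol, where it fell 1.24-fold. In dexamethasone its libraries overlapped, at 33.2 and 36.0 CPM against 34.0 and 30.9 CPM. Lig1, the ligase of Okazaki fragments, and Rrm1, the large subunit of ribonucleotide reductase, fell in both treatments, by 0.26 and 0.18 for Lig1 and 0.17 and 0.19 for Rrm1. Pcna, the sliding clamp, fell by 0.18 in dexamethasone and differed by -0.16 ± 0.059 in ethanol (adjusted p = 0.0665). Tyms, which makes thymidylate, fell by 0.26 in ethanol alone, while Fen1, the flap nuclease, Rfc4 and Rrm2, the small subunit of the reductase, did not pass the test in either treatment. Their differences ran from -0.19 to -0.12.

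The G2/M genes had a median difference nearer to 0, and few passed the test. Mki67, the Ki-67 proliferation marker, was at 920.4 and 888 CPM without IPTG and 778 and 794 CPM with IPTG in ethanol, a fall of 0.20 (SE 0.066, adjusted p = 0.0407). In dexamethasone its libraries overlapped, at 758 and 879 CPM against 738 and 779 CPM. Ccna2, cyclin A2, was at 256 and 270.1 CPM against 228 and 234 CPM in ethanol and fell by 0.19, and in dexamethasone it stood at 243 and 226 CPM against 217 and 210 CPM (log2 -0.14, adjusted p = 0.0901). Top2a, the topoisomerase that untangles sister chromatids, was at 850 and 848 CPM against 751 and 773 CPM in ethanol and fell by 0.16. In dexamethasone it was at 686 and 662 CPM against 630 and 622 CPM (log2 -0.11, adjusted p = 0.111). Aurkb, the Aurora B kinase, was the G2/M gene that fell in dexamethasone, from 102 and 94.4 CPM to 87.9 and 81.8 CPM (log2 -0.21, adjusted p = 0.0109), and it differed by -0.10 in ethanol, where it was at 80.5 and 81.9 CPM against 75.8 and 76.1 CPM. Each of these 4 calls was lost under at least 2 of the 16 alternatives. The remaining 8 (Ccnb1, Ccnb2, Cdk1, Bub1, Aurka, Plk1, Foxm1 and Cenpa) had log2 differences of -0.12 to 0.08 over both treatments, and Ccnb2, cyclin B2, was the G2/M gene above 0. Ccnd1, the D-type cyclin of G1, was at 929 and 1039 CPM against 772 and 954 CPM in ethanol, where the libraries overlapped, and at 1092 and 1140 CPM against 969 and 1014 CPM in dexamethasone. It differed by -0.19 ± 0.14 and -0.17 ± 0.14 and did not pass the test.

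Across the 44 genes the differences in ethanol and in dexamethasone, which share no library, had a Pearson r of 0.924 and a Spearman rho of 0.762, given as a description since genes are not independent and Ccne2 and Mcm3 stand far from the rest. In ethanol 39 of the 44 genes had both libraries with IPTG below both without and 2 had both above, where 27.7% and 27.5% of all tested genes did. In dexamethasone the counts were 37 and 1, against 27.1% and 28.8%. Of the 12 G2/M genes 10 had both libraries with IPTG below in ethanol and 9 in dexamethasone, and 1 and 0 had both above. The difference between the knockdown differences in the 2 treatments was called for 0 of the 44 genes with edgeR and 0 with DESeq2, and 1 gene, Rfc3, had an unadjusted p under 0.05. Of all tested genes 0.171% were called (0.154% lower, 0.0177% higher). For Ccne2 that difference was 0.10 ± 0.13 and for Mcm3 -0.03 ± 0.098 on the log2 scale. A gap of the size of these errors was not detectable, and differences of up to 0.22 among the S-phase genes were not called.

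Genes of the same processes outside the 44 gave further counts, to be read beside the 6.24% of all tested genes that fell in ethanol and the 8.49% in dexamethasone (7.16% and 8.36% rose). Of 32 other genes of the replication machinery, 10 fell and 1 rose in ethanol, and 6 fell and 1 rose in dexamethasone, with medians of -0.15 and -0.08. Among them Rfc5, another clamp loader subunit, fell by 0.30 in ethanol, Rpa1, which coats single-stranded DNA, by 0.27, and Pold2, a subunit of the lagging-strand polymerase, by 0.27. The gene that rose was Pold4, a small subunit of the same polymerase, at 0.38 and 0.35, named after its value was seen. Of 20 other genes commonly used to score S phase, 13 fell in ethanol and 9 in dexamethasone and 0 rose, with medians of -0.28 and -0.20. Blm, a helicase of recombination, fell from 51.6 and 51.1 CPM to 38.1 and 37.4 CPM in ethanol, a 1.36-fold fall (adjusted p = 1.6e-06). Atad2, a chromatin ATPase, fell by 0.29 and Dtl, which directs the destruction of CDT1, by 0.45. Of 43 other genes used to score G2/M, 9 and 6 fell and 0 rose, with medians of -0.10 and -0.07, and Psrc1, Ttk and Gtse1 had the lowest adjusted p in ethanol (log2 -0.41, -0.21 and -0.23). Of 24 G1/S regulators, 22 were tested, and 6 fell and 1 rose in ethanol and 7 fell and 1 rose in dexamethasone. Cdc25a, the phosphatase that activates CDK2, fell 1.66-fold and 1.63-fold. Ccnd2, cyclin D2, fell by 0.40 and 0.37. Of the 5 CDK inhibitor genes tested, Cdkn2b, Cdkn2c and Cdkn2d did not pass the test in either treatment. Cdkn1a fell by 0.61 and 0.42, and Cdkn1b, named after its value was seen, rose by 0.32 and 0.27.

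Some S-phase genes were lower with IPTG whatever the construct. In each treatment 11 S-phase genes had all 10 libraries with IPTG, over the 5 constructs, below both libraries without IPTG, where 8.63% of all tested genes did in ethanol and 9.44% in dexamethasone. In both treatments this held for 9: Mcm3, Mcm6, Mcm10, Ccne2, Cdc6, Cdt1, Gins2, Pola1 and E2f1, against 4.69% of all tested genes. For the 12 G2/M genes the count was 0 in each treatment, which is near the shares over all tested genes and is not read as a contrast between the classes. Over the 10 libraries with IPTG in ethanol, Mcm3 ranged from 86.6 to 107 CPM, below 151 CPM, and Ccne2 from 30.1 to 38.6 CPM, below 57.7 CPM. In dexamethasone Mcm3 ranged from 88.8 to 110 CPM, below 155 CPM, and Ccne2 from 18.4 to 23.95 CPM, below 36.7 CPM.

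**Figure D2:**
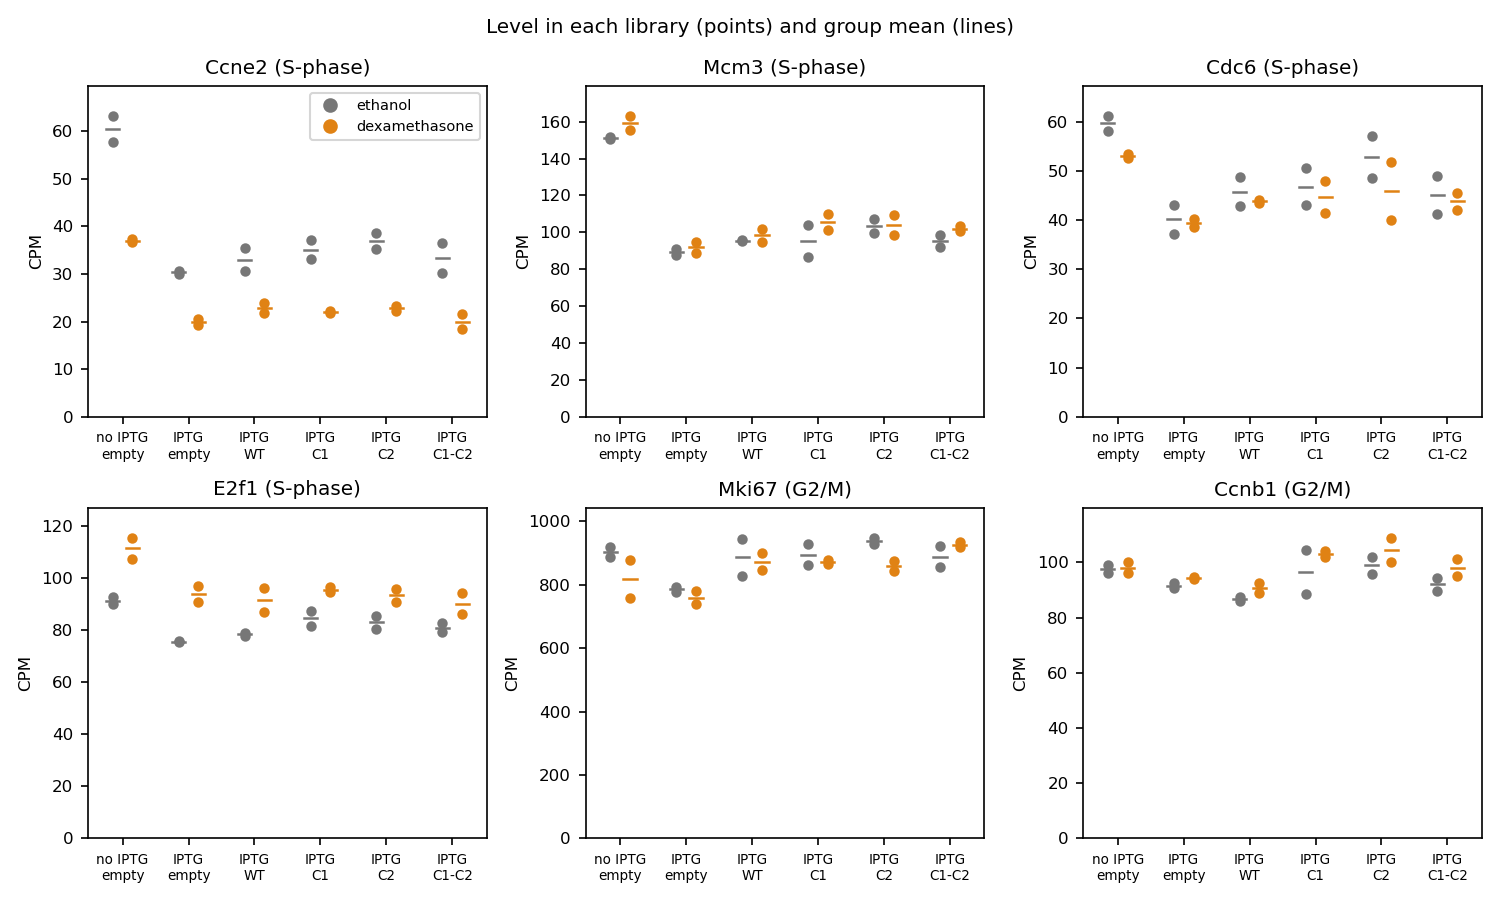
Level in CPM of 4 S-phase and 2 G2/M genes in the 24 libraries (points) with the mean of each group (lines), in ethanol (grey) and dexamethasone (orange), on axes that start at 0. For Ccne2, Mcm3, Cdc6 and E2f1 each library with IPTG lies below the libraries without IPTG of its treatment. For Mki67 and Ccnb1 the libraries with IPTG, taken over all constructs, overlap those without. With the empty vector alone Mki67 overlaps in dexamethasone only, and Ccnb1 in neither treatment.

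Few of the 44 RNAs were called with wild-type NIPBL against the empty vector, and these counts are near the shares over all tested genes. In ethanol 0 of the 44 were called with edgeR and 0 with DESeq2, 5 had an unadjusted p under 0.05, and 1.16% of all tested genes were called (0.526% lower, 0.632% higher). In dexamethasone 1 rose, Pola1, and 4.2% of all tested genes were called (1.84% lower, 2.36% higher). Pola1 was at 91.6 and 91.2 CPM with wild-type NIPBL and at 81.7 and 76.8 CPM with the empty vector (log2 0.21 ± 0.049, adjusted p = 0.0165). With the trend of counts with GC content and gene length removed, its difference was 0.09 and the call was lost (adjusted p = 0.357), as it was without replicate 1 of wild-type NIPBL or without replicate 2 of the empty vector. The S-phase median was 0.07 in ethanol and 0.08 in dexamethasone, and the G2/M median -0.01 and 0.01. Of the 31 S-phase genes 17 had both wild-type libraries above both empty-vector libraries in ethanol and 1 had them below, where 20.4% and 22.7% of all tested genes did. In dexamethasone the counts were 16 and 3, against 21.9% and 24.1%. Of the 12 G2/M genes 3 were above and 3 below in ethanol, and 2 were above and 5 below in dexamethasone. Mcm3 differed by 0.10 ± 0.071 and 0.10 ± 0.070, and Ccne2 by 0.12 ± 0.091 and 0.20 ± 0.092.

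Against the cells without IPTG, those with wild-type NIPBL and IPTG still had lower RNA of most of these genes. Averaged over the treatments, 28 of the 44 fell and 0 rose, where 9.36% of all tested genes fell and 7.23% rose. They were 21 S-phase genes and 7 G2/M genes (Ccna2, Ccnb1, Cdk1, Aurka, Aurkb, Plk1 and Foxm1), and the medians were -0.18 and -0.12, beside 0.01 over all tested genes. With the GC and length trend removed 30 fell (22 S-phase, 8 G2/M) and 0 rose, where 10.1% and 7.13% of all tested genes did. In each treatment alone, with 2 libraries a side, 11 of the 44 fell in ethanol and 13 in dexamethasone, and 0 rose. Of all tested genes 5.06% and 10.7% were called, in either direction. G2/M genes made up 0 of the 11 and 3 of the 13. The averaged count, with 4 libraries a side, is not comparable with the knockdown counts of single treatments. Mcm3 was at 95.6 and 95.3 CPM with wild-type NIPBL in ethanol and at 102 and 94.8 CPM in dexamethasone, 1.60-fold lower than without IPTG (log2 -0.68 ± 0.049, adjusted p = 6.43e-10). Ccne2 was at 30.6 and 35.4 CPM and at 21.8 and 23.95 CPM, 1.72-fold lower (-0.78 ± 0.062, adjusted p = 8.85e-09). Gins2 was at 21.1 and 21.7 CPM and at 18.9 and 20.3 CPM, 1.28-fold lower (-0.36 ± 0.050, adjusted p = 1.78e-05). None of these 3 calls was lost under any of the 20 alternatives. The replicates of wild-type NIPBL in dexamethasone differed most from each other over all genes (chi-square per degree of freedom of 22.9, against 5.92 in the closest pair), and without replicate 1 of that group 22 genes fell. Without replicate 1 of the empty vector without IPTG in dexamethasone the count was 16.

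The C2 mutant had higher RNA of these genes than the empty vector, and the difference was larger in replicate 2. Averaged over the treatments, 21 of the 44 rose and 0 fell, where 3.87% of all tested genes were called (2.11% higher, 1.76% lower). In each treatment alone edgeR called 0 of the 44, where 0.224% of all tested genes were called in ethanol and 0.644% in dexamethasone. An unadjusted edgeR p under 0.05 was found for 31 and 24 of the 44, without a share over all tested genes to set beside them. All 44 fitted differences of the average were above 0, with a median of 0.18 for the S-phase genes and 0.13 for the G2/M genes, beside 0.00 over all tested genes. The 21 were 16 S-phase genes and 5 G2/M genes (Ccna2, Top2a, Mki67, Aurkb and Foxm1). Uhrf1 was at 288 and 319 CPM with C2 against 257 and 259 CPM with the empty vector in ethanol, and at 308 and 339 CPM against 279 and 272 CPM in dexamethasone (log2 0.23 ± 0.042, adjusted p = 0.00251). Lig1 was at 148 and 151 CPM against 126 and 129 CPM in ethanol and at 148 and 154 CPM against 139 and 131 CPM in dexamethasone (0.19 ± 0.037, adjusted p = 0.00371). Mcm6 was at 272 and 285 CPM against 247 and 238 CPM in ethanol and at 264 and 268 CPM against 242 and 221 CPM in dexamethasone (0.20 ± 0.039, adjusted p = 0.00404). In each of these 3 genes the C2 libraries lay above the empty-vector libraries of the same treatment. With both replicate 2 libraries of C2 left out, a check added after the values were seen, 0 of the 44 were called, and the medians were 0.11 and 0.08. With a single library left out the count ran from 5, without replicate 2 of C2 in dexamethasone, to 26. It was 6 without replicate 2 of C2 in ethanol, 6 without replicate 2 of the empty vector in dexamethasone, and 11 and 9 without replicate 1 or 2 of the empty vector in ethanol.

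The mean over the 31 S-phase genes in each library shows this split. Relative to the libraries without IPTG of the same treatment, that mean was -0.31 and -0.28 on the log2 scale with the empty vector in ethanol and -0.24 and -0.28 in dexamethasone. With wild-type NIPBL it was -0.25 and -0.23, and -0.18 and -0.20. With C2 it was -0.19 in replicate 1 and -0.04 in replicate 2 in ethanol, and -0.18 and -0.03 in dexamethasone. C1 showed a split in the same sense, -0.26 and -0.09 in ethanol and -0.17 and -0.09 in dexamethasone. With C1-C2 the values were -0.24 and -0.15, and -0.19 and -0.16. Within each treatment the numbered library names of replicate 1 all come before those of replicate 2. The labels name no batch for replicate 2, and what sets those libraries apart was not tested. The S-phase mean was below the G2/M mean in all 20 libraries with IPTG, by 0.08 to 0.20, while in the 4 libraries without IPTG, whose mean in each treatment is the reference, both means lay within 0.004 of each other.

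**Figure D3:**
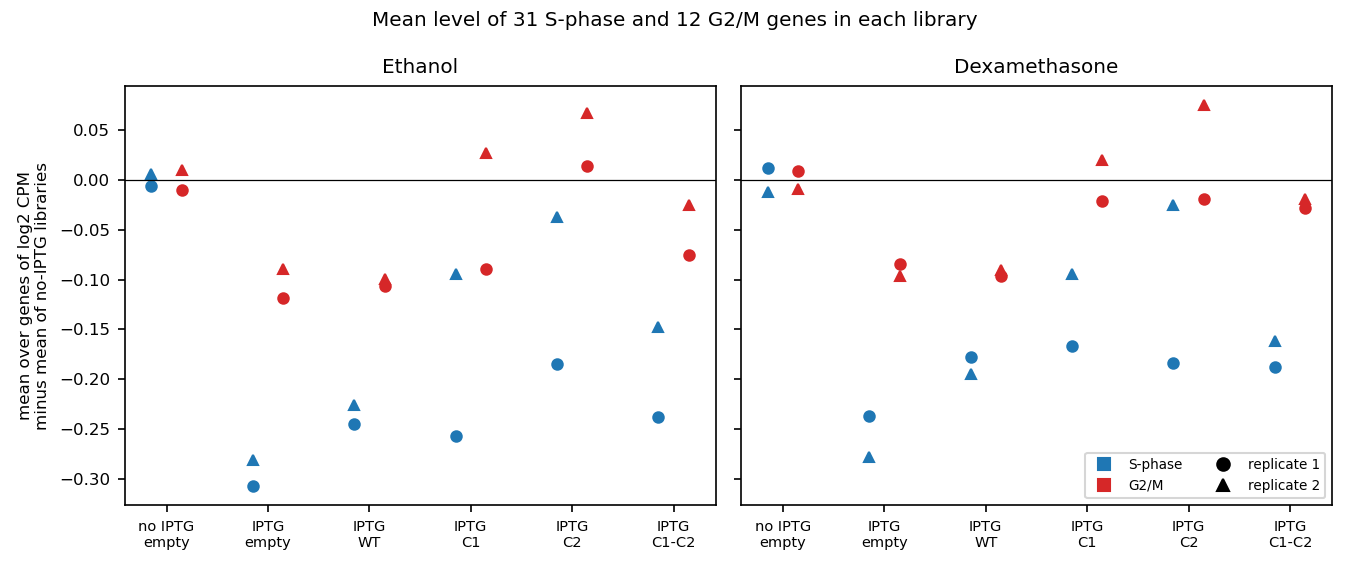
Mean over 31 S-phase genes (blue) and 12 G2/M genes (red) of log2 CPM minus the mean of the libraries without IPTG of the same treatment, for each library, with circles for replicate 1 and triangles for replicate 2. The blue points with the empty vector lie between -0.31 and -0.24, and the triangles of C2 lie at -0.04 and -0.03, above the circles at -0.19 and -0.18.

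The other mutants gave few calls against the empty vector. With C1 and with C1-C2 the gene that rose was Mki67, where 0.685% and 0.307% of all tested genes rose. In all, 1.43% of tested genes were called with C1 (0.75% lower) and 0.437% with C1-C2 (0.13% lower). Mki67 was at 928 and 863 CPM with C1 and 920.7 and 857 CPM with C1-C2 in ethanol, against 778 and 794 CPM with the empty vector. In dexamethasone it was at 879 and 866 CPM with C1 and 919.9 and 933 CPM with C1-C2, against 738 and 779 CPM. The differences were 0.20 ± 0.046 (adjusted p = 0.0291) and 0.23 ± 0.046 (adjusted p = 0.0158), and no library overlapped, but 10 of 21 alternatives ended the first call and 7 of 20 the second. The S-phase medians were 0.12 with C1 and 0.10 with C1-C2, and the G2/M medians 0.09 and 0.05. An unadjusted edgeR p under 0.05 was found for 28 of the 44 with C1 and 17 with C1-C2, against 35 with C2. No share over all tested genes was computed for these p-values, so their counts are not read further. With each of these 2 mutants 42 of the 44 fitted differences were above 0, where all 44 were with C2. With wild-type NIPBL against the same empty vector, 30 of the 44 were above 0 in ethanol and 34 in dexamethasone. By these signs the shift above 0 was not particular to C2. These comparisons share the empty-vector libraries.

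Against wild-type NIPBL, the C2 mutant had higher RNA of 7 genes of G2 and mitosis, and Plk1 was called with each of the 3 mutants. With C2 13 of the 44 rose and 0 fell, where 6.87% and 5.98% of all tested genes did. They were 7 of the 12 G2/M genes and 6 of the 31 S-phase genes, and the medians were 0.14 and 0.10. In ethanol alone 2 of the 44 were called and in dexamethasone alone 3, all of them G2/M genes, where 2% and 5.17% of all tested genes were. Plk1, a kinase of mitotic entry, was at 103 and 106 CPM with C2 and 88.9 and 90.1 CPM with wild-type NIPBL in ethanol, and at 108 and 119 CPM against 96.2 and 98.6 CPM in dexamethasone (log2 0.22 ± 0.042, adjusted p = 0.00107). Foxm1, the transcription factor of mitotic genes, was at 312 and 342 CPM against 277 and 276 CPM in ethanol and at 354 and 390.3 CPM against 330 and 318 CPM in dexamethasone (0.22 ± 0.042, adjusted p = 0.00120). Aurka, the Aurora A kinase, was at 85.5 and 90.4 CPM against 78.9 and 79.0 CPM, and at 81.7 and 96.1 CPM against 74.8 and 72.5 CPM (0.21 ± 0.047, adjusted p = 0.00472). The C2 libraries were above those of wild-type NIPBL in all 3 genes. With both replicate 2 libraries of C2 left out, Plk1 was the 1 gene called (adjusted p = 0.0477). Without replicate 2 of C2 in ethanol the count was 5, and without replicate 2 of C2 in dexamethasone it was 3. With C1, Plk1, Foxm1, Ccnb1 and Cdt1 rose, by 0.16 to 0.20, where 9.66% of all tested genes were called (5.24% higher, 4.41% lower), and with both replicate 2 libraries of C1 left out 0 of the 44 did. The count was 0 without replicate 2 of C1 in either treatment, 2 when the second wild-type library in ethanol was left out, and 12 without replicate 1 of C1 in ethanol. Ccnb1, cyclin B1, was at 88.5 and 105 CPM with C1 and 87.5 and 86.2 CPM with wild-type NIPBL in ethanol, and at 102 and 104 CPM against 88.8 and 92.6 CPM in dexamethasone. With C1-C2 the gene that rose was Plk1, at 98.4 and 103 CPM in ethanol and 112 and 113 CPM in dexamethasone (0.19 ± 0.042, adjusted p = 0.00793), where 4.86% of all tested genes were called (2.67% higher, 2.19% lower). The counts with C1 and C1-C2, 4 and 1 of 44, are near the shares over all genes and are read only for the genes named. These 3 comparisons share the libraries of wild-type NIPBL. With the empty vector and IPTG, Plk1 was at 93.42 and 98.55 CPM in ethanol and at 104 and 107 CPM in dexamethasone. Both were above the wild-type libraries of the same treatment. Foxm1 was likewise higher with the empty vector than with wild-type NIPBL in both treatments, and Aurka in dexamethasone only. Against the empty vector, averaged over the treatments, Plk1 and Aurka were called with no mutant, and Foxm1 with C2 alone.

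**Figure D4:**
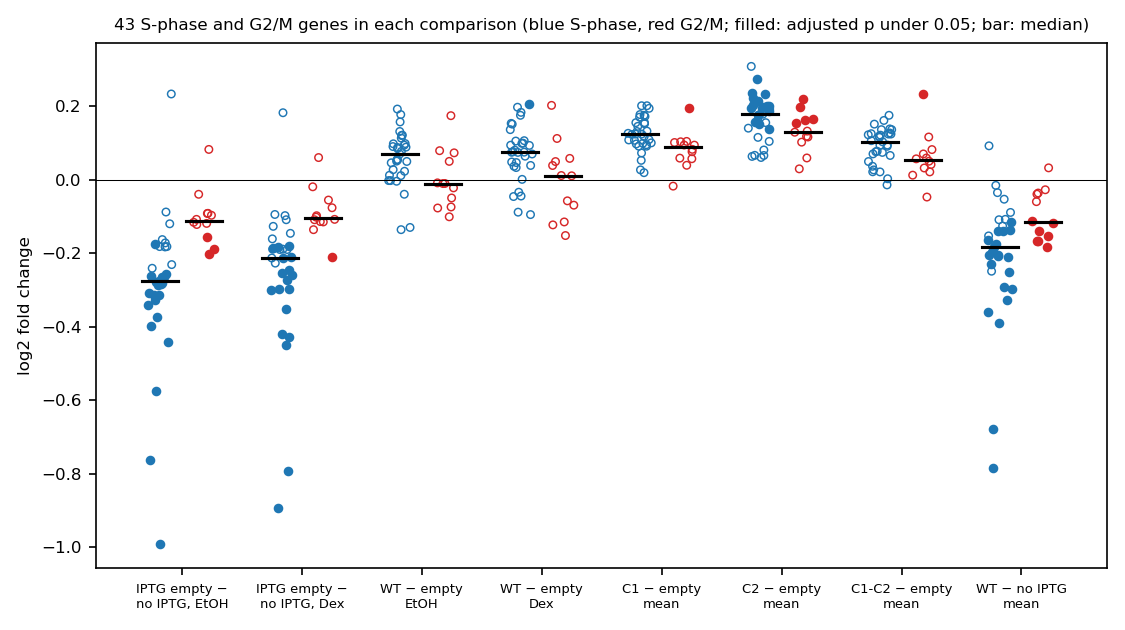
Log2 fold change of the S-phase genes (blue) and G2/M genes (red) in 8 comparisons, with filled points for an adjusted p under 0.05, bars for medians and a random horizontal offset. The S-phase medians lie at -0.28 and -0.21 with IPTG in empty-vector cells, at 0.07 and 0.08 for wild-type NIPBL against the empty vector, at 0.18 for C2 against the empty vector and at -0.18 for wild-type NIPBL against no IPTG.

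Dexamethasone was accompanied by changes in both directions that went with the GC content of the transcripts. Averaged over the 6 states, 14 of the 44 genes fell and 16 rose, where 63.3% of all tested genes were called (30.2% lower, 33.2% higher), so the count is close to the background. Across the 44 genes the difference had a Pearson r of 0.647 and a Spearman rho of 0.682 with GC content, described without a test since the genes share libraries. Over all genes, the 25% with the highest GC content stood below the 25% with the lowest in the 12 ethanol libraries, by 0.14 to 0.29 on the log2 scale, and above it in the 12 dexamethasone libraries, by 0.06 to 0.30. Names of ethanol and dexamethasone libraries come from different number ranges, so the hormone and whatever those ranges stand for cannot be told apart. With the GC and length trend removed, 15 genes fell and 8 rose, where 52% of all tested genes were called (28.4% lower, 23.5% higher), and the r with GC content was -0.10.

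Ccne2, which has the lowest GC content of the 44 (37.5%), fell by 0.66 (SE 0.037, adjusted p = 1.74e-13), and by 0.28 with the trend removed (adjusted p = 4.22e-04). Over the 12 ethanol libraries it ranged from 30.1 to 63.2 CPM and over the 12 dexamethasone libraries from 18.4 to 37.4 CPM, and in each of the 6 states it was lower in dexamethasone. Top2a fell by 0.29 (SE 0.019), and by 0.09 with the trend removed. Pola1 fell by 0.30 (SE 0.020), and by 0.06 with the trend removed. All 3 were lower in dexamethasone in 6 of 6 states in both fits, and the calls were kept, but the sizes shrank by over 1.5 times. E2f2, named after its value was seen, went against the GC trend: with a GC content of 56.5% it fell by 0.48 (SE 0.042), and by 0.67 with the trend removed (adjusted p = 6.06e-13). In the 12 ethanol libraries E2f2 was at 22.3 to 27.7 CPM and in the 12 dexamethasone libraries at 15.9 to 20.8 CPM, with no overlap. E2f1, by contrast, rose by 0.22, and its difference was 0.03 with the trend removed (adjusted p = 0.336). Likewise Ccnd1 rose by 0.21 and differed by 0.07 with the trend removed (adjusted p = 0.286).

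**Figure D5:**
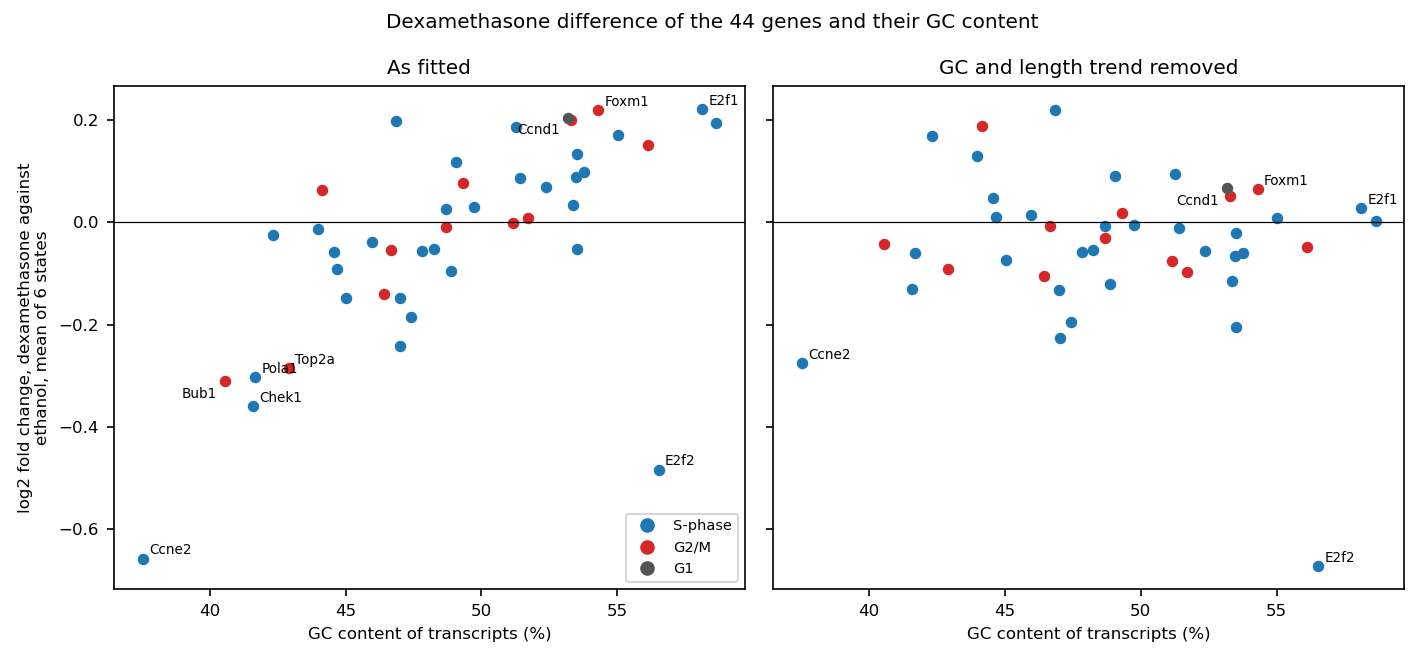
Log2 fold change in dexamethasone against ethanol, averaged over 6 states, against the GC content of the transcripts in percent, for the 44 genes as fitted (left) and with the trend with GC content and length removed (right). On the left the points rise from Ccne2 at -0.66 to E2f1 at 0.22, with E2f2 apart at -0.48, and on the right E2f2 lies at -0.67 and Ccne2 at -0.28.

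The knockdown differences were less bound to GC content. In ethanol the difference of the 44 genes had a Pearson r of 0.198 and a Spearman rho of 0.037 with GC content. In dexamethasone the r was 0.011 and the rho -0.213. With the trend removed 21 of the 44 fell in ethanol and 21 in dexamethasone, where 6.68% and 8.88% of all tested genes fell, and 0 rose, where 7% and 8.93% did. Those were 20 S-phase genes and 1 G2/M gene in ethanol, and 19 and 2 in dexamethasone. Ccne2 fell by 0.87 and 0.86 in that fit and Mcm3 by 0.78 and 0.79.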

How the data were processed

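The source was 1 table of 24 RNA-seq libraries, in which the authors deposited whole-number counts for each gene name. Gene lengths stand in the same table, per the file headers (another unit, in bases), and served for levels per kilobase. Per the submitters' processing notes, reads were handled with bcl2fastq 2.20, cutadapt 1.18, STAR 2.7.0f and featureCounts (Subread 2.0.3 is named) on mm10, and per the labels' protocols the kit was Illumina's stranded total RNA kit with removal of ribosomal RNA. Annotation release, strand setting and treatment of reads with several alignments are not given in the sources used here. All 55341 gene names are in GENCODE vM21, which supplied GC content and overlapping genes.

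The main test was edgeR's quasi-likelihood test (version 4.0.16, R 4.3.3; TMM factors, filterByExpr by group, robust fit), fitted to all 12 group means with 12 residual degrees of freedom. P-values were adjusted after Benjamini and Hochberg over all 16934 tested genes (38407 were filtered out), and called means an adjusted p under 0.05. The median biological coefficient of variation was 6.43%. A natural-spline trend of each library with GC content and length (5 degrees of freedom each) was removed in an alternative fit. DESeq2 1.42.0 was the other tool. The scripts were tested on simulated counts with known changes.

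The genes, the lists of related genes and the tests were chosen with earlier results of these data known. Values per library were given for the S-phase genes (at most 10) and G2/M genes (at most 6) of largest knockdown difference among those called, for Ccnd1, E2f1 and Mki67, for at most 3 genes of lowest adjusted p in each other comparison, and at most 3 in each related list. The labels do not show separate cultures, so the p-values reflect the spread of these libraries, which may be technical. Alternatives changed the scaling (RLE), the filter (none, or a mean of at least 1 CPM), the block on replicate number, the genes (without the 2 most abundant) and the libraries (1 left out at a time, those of the comparison alone, or the 1 whose labels disagree dropped or reassigned).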

Additional observations from a re-analysis of the deposited data

How the results depend on the processing

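Each comparison was repeated under up to 35 alternatives. No direction of the 44 named results reversed, and 22 of those 44 were called under every alternative, among them Ccne2 and Mcm3 in each knockdown comparison. Of 159 alternative counts that leave out no single library, 47 moved by over 1.5 times. The cause was not tested except where fewer libraries were fitted. For most alternatives the share of all tested genes called is not given here. A moved count there cannot be told apart from a change in calls over all genes. With any 1 library left out, the count ran from 15 to 19 in the ethanol knockdown (24 in all), from 6 to 18 in the dexamethasone knockdown (19), from 0 to 2 for wild-type NIPBL against the empty vector in dexamethasone (1), from 16 to 25 for wild-type NIPBL against no IPTG (28), from 0 to 6 for C1 (1), 5 to 26 for C2 (21) and 0 to 1 for C1-C2 (1) against the empty vector, and from 0 to 12 for C1 (4), 3 to 18 for C2 (13) and 1 to 1 for C1-C2 (1) against wild-type NIPBL. Only libraries of the groups compared were left out, and a group left with 1 library was assumed to vary like the others. Of all tested genes, 1107 were called in ethanol without replicate 2 of the empty vector with IPTG (2270 in all) and 1353 in dexamethasone without the same replicate (2854).

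The labels number the replicates 1 and 2, and within each treatment the library names of replicate 1 precede those of replicate 2. With 2 numbers the replicates are not shown to pair. Within ethanol the correlation of same-numbered deviations ran from -0.10 to 0.40 (median 0.26). Within dexamethasone it ran from -0.32 to 0.46 (median 0.06). With a replicate block the knockdown counts were 30 in ethanol and 25 in dexamethasone, with Ccne1 called higher in ethanol and Ccnd1 lower in both. For Ccnd1 the library numbered 2 was the higher in all 12 groups. The block gave 2 for wild-type NIPBL against the empty vector in dexamethasone (also 2 within treatment), 5 for C1 (7 within treatment), 26 for C2 and 2 for C1-C2 (2 within treatment) against the empty vector, and 10 for C1 (10 within treatment), 19 for C2 (20 within treatment) and 2 for C1-C2 (2 within treatment) against wild-type NIPBL. With the replicate block within treatment and the GC trend removed the counts were 0 for wild-type NIPBL, 10 for C1 and 3 for C1-C2 against the empty vector, and 12 for C1 (1 of them lower), 23 for C2 and 4 for C1-C2 against wild-type NIPBL.

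Without the low-count filter the counts were 10 for C1 and 2 for C1-C2 against the empty vector, and 9 for C1 and 3 for C1-C2 against wild-type NIPBL, and Ccne1 was called higher in the ethanol knockdown. The strict filter gave 0 for C1 against the empty vector. With the GC trend removed the counts were 0 for wild-type NIPBL in dexamethasone, 5 for C1 and 2 for C1-C2 against the empty vector and 9 for C1 against wild-type NIPBL. DESeq2 gave 2 for wild-type NIPBL in dexamethasone, 4 for C1 and 2 for C1-C2 against the empty vector, and 8 for C1 against wild-type NIPBL. With the libraries compared fitted alone the counts were 0 for wild-type NIPBL in dexamethasone, 5 for C1, 13 for C2 and 6 for C1-C2 against the empty vector, and 5 for C2 and 3 for C1-C2 against wild-type NIPBL. Moving the library with disagreeing labels to dexamethasone gave 0 for wild-type NIPBL in dexamethasone, 0 for C1, 3 for C2 and 0 for C1-C2 against the empty vector, and 0 for C1, 5 for C2 and 0 for C1-C2 against wild-type NIPBL. With both replicate 2 libraries of the mutant left out, an alternative chosen after seeing the data, the counts were 0 for C1 and 0 for C2 against the empty vector, and 0 for C1 and 1 for C2 against wild-type NIPBL. Under RLE factors 14 genes fell and 13 rose in dexamethasone, and with the GC trend removed 15 fell and 8 rose, against 14 and 16.

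With 2 libraries per group, differences well above the fitted errors could also go uncalled. An example is E2f3 in the ethanol knockdown (log2 -0.18, SE 0.063, edgeR adjusted p = 0.0618). A count of calls says little of genes just above the threshold.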
